A study of Mus musculus with 384 samples.

Results

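Glucose transporters, glycolytic enzymes, regulators of glycolytic flux and other hypoxia target genes were described in the accessible chromatin of sorted cells from a mouse breast tumor. The set held 34 genes of the 22350 protein-coding genes annotated on the 20 chromosomes that carried windows. It was made up of 2 glucose transporters, 15 glycolytic enzymes, 3 flux regulators, 1 lactate exporter and 13 other hypoxia targets, and all 34 were found by symbol. Members were given by gene name, and a window was assigned to a gene by the distance of its centre from any annotated transcription start site (a position where an annotated transcript begins). The tumor came from 1 mouse of the MMTV-PyMT model, killed at 3 months of age, in which a mammary tumor virus promoter drives a viral oncogene in the mammary epithelium. Fixed tumor cells carried antibodies to EpCAM, which marks epithelium by its role in cell adhesion, and to CD45, which marks leukocytes, and were sorted singly into 4 plates of 96 wells for Pi-ATAC, in which a transposase cuts and tags open DNA in cells whose protein stain is recorded. All wells were 1 group in the labels and no stain was given for a well, so epithelial and immune cells were not compared here. The authors report similar numbers of EpCAM-stained and CD45-stained cells among those that passed their filter. They also report that CD45-stained cells were only a small share of the stained tumor cells. The pool thus does not have the make-up of the tumor, and its windows cannot be read as mainly those of epithelium. What was processed from them was 1 list of 50000 windows of 500 bp around the summits of accessible regions, pooled over all wells, with positions in mouse build mm9 and no score or count, so the depth behind a window was unknown and there were no replicates. A window reports that the site ranked among the most significant summits of the pool, and neither its level nor the share of cells that held it could be read.

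Glycolysis splits glucose into pyruvate, and lactate dehydrogenase turns pyruvate into lactate when oxygen is short or when a tumor favors fermentation. When oxygen falls, the HIF-1α and HIF-2α proteins are no longer degraded, pair with ARNT and bind hypoxia response elements built around the core word ACGTG or its relative GCGTG. Between them, these factors raise most glycolytic enzymes together with genes for pH control, mitophagy, collagen modification and angiogenesis. Many glycolytic steps are served by several isozymes encoded by separate genes with different tissue distributions.

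The sequences below show the core word where it lay closest to a summit in the promoter windows of 10 members, since this word was more frequent in the promoter windows of the set than in those of all protein-coding genes. They include 1 gene with the word from each isozyme set that differed in the promoter window or in the word, where it had one. They were read from the mm9 genome on the strand of the gene, with the word in capitals as ACGTG, its reverse complement CACGT or the E-box CACGTG, in which the word stands on both strands and which was counted as 1 place. A promoter window is a window with its centre within 1 kb of a start site of the gene. The word lay 2 bp from the summit in Ldha (chr7:54101065-54101208, + strand), 7 bp in Pgk1 (chrX:103382233-103382387, + strand), and 10 bp in both Slc2a1 (chr4:118781648-118781802, + strand) and Kdm3a (chr6:71583359-71583513, - strand). It lay 16 bp from the summit in Tpi1 (chr6:124763637-124763792, - strand), 17 bp in Higd1a (chr9:121766760-121766788, - strand, short because it is in a UTR) and 22 bp in Pfkfb3 (chr2:11423729-11423845, - strand). The distances were 26 bp in Pfkl (chr10:77471961-77472116, - strand), 66 bp in Car12 (chr9:66562012-66562167, + strand) and 73 bp in Aldoa (chr7:133942815-133942969, - strand).
Slc2a1: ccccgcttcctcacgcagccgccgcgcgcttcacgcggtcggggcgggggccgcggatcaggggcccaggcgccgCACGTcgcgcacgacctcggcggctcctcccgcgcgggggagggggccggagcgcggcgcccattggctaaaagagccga
Pfkl: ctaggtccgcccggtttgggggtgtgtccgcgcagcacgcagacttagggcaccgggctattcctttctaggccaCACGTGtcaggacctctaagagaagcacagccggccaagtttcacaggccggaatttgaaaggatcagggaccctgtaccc
Pfkfb3: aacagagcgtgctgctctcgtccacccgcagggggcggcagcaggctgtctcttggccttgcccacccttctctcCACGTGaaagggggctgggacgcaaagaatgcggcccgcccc
Aldoa: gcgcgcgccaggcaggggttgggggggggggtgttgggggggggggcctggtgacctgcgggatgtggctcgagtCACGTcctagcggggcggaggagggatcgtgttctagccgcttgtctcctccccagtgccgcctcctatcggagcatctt
Tpi1: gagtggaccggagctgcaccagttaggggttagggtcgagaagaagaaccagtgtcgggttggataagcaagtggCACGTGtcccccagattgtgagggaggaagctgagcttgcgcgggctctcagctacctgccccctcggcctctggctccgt
Pgk1: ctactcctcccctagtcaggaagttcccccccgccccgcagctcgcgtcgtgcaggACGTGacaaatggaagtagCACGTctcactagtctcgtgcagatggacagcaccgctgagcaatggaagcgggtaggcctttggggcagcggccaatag
Ldha: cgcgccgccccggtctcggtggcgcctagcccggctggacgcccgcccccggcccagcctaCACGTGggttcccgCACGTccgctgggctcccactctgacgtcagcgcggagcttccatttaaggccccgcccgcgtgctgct
Car12: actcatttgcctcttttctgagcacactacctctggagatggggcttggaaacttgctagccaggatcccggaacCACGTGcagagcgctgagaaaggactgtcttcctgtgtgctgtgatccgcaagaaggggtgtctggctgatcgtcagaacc
Kdm3a: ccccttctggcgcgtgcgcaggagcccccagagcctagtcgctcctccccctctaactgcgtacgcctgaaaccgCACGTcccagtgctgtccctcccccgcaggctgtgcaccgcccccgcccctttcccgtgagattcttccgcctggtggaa
Higd1a: caccgcccctcgCACGTaaagggagtctc

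Facts of the pool that bear on these genes were as follows. Chromosomes 7, 8, 9 and X kept about 41.5 to 51.8% of the peaks called on them, against about 23.6 to 26.5% on the other 16, as estimated from the running peak numbers left in the list, and they carried 10 of the 34 members. Of those 10 members 9 had a promoter window, against 45.6% of all protein-coding genes on these chromosomes, and 20 of the 24 on other chromosomes had one, against 42.8%. Among marker genes, promoter windows were present at 4 of 7 luminal epithelial, 5 of 6 leukocyte and 4 of 4 fibroblast genes, at 0 of 4 endothelial and 0 of 3 adipocyte genes, and at 3 of 9 genes of neuron, liver and muscle. In the same order, the median windows within 50 kb were 9, 10, 3, 5, 5 and 3. Of 10 equal classes of genes by CpG around the start site (10, most), adipocyte genes lay in class 2. Endothelial genes lay mostly in class 3 and otherwise in 7, and fibroblast genes in 2, 5 and 7. Of all genes in classes 2, 3, 5 and 7, 6.2, 11.9, 49.4 and 68.4% had a promoter window. The defining genes of both stains, Epcam and Ptprc (which encodes CD45), had 0 promoter windows but 9 and 4 windows within 50 kb. The part of these cell types in the windows of the members was not tested.

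Most members had an accessible window at a promoter. A promoter window was present at 29 of 34 members (85.3%), against 43.5% of all protein-coding genes. The 5 without one were Pfkm, the muscle form of phosphofructokinase, Eno2, the neuronal enolase, Car9, a surface carbonic anhydrase, Adm, which encodes the vasodilator peptide adrenomedullin, and Ddit4, an inhibitor of mTOR signalling. More than 1 promoter window was present at 20 members (58.8%), against 14.5% of all genes. Among genes with a promoter window, it was 20 of 29 members and 3230 of 9718 protein-coding genes. In the 29 members with a promoter window, the closest centre lay 6 to 487 bp from a start site, with a median of 72 bp, and in 24 of them it was within 200 bp.

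Many member promoters were rich in CpG, as is usual for genes used in most cells, and promoter windows were more frequent at CpG-rich genes. The start site with most CpG had a median of 71 CpG in the 1 kb centred on it in members and 47 in all protein-coding genes. When all genes were ranked by this CpG count and split at the middle, 25 of 27 members in the CpG-richer part had a promoter window, against 68.5% of all genes there. In the CpG-poorer part, 4 of 7 members had one (Tpi1, Pfkfb4, Aldoc and Car12), against 18.5%. When the ranking was divided into 10 equal classes (10, most CpG), these 7 members lay in classes 4 and 5. There 2 of 3 and 2 of 4 had a promoter window, against 23.0 and 49.4% of all genes. Classes 1 to 3, with 2.0, 6.2 and 11.9%, held 0 members and lower the 18.5%. Members also carried more annotated start sites than other genes, with a median of 5.5 against 2. Among genes with 4 or more start sites, 23 of 25 members had a promoter window, against 65.5% of all such genes. What CpG content and start site number contribute to the difference between members and all genes was not tested beyond these splits.

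**Figure D1:**
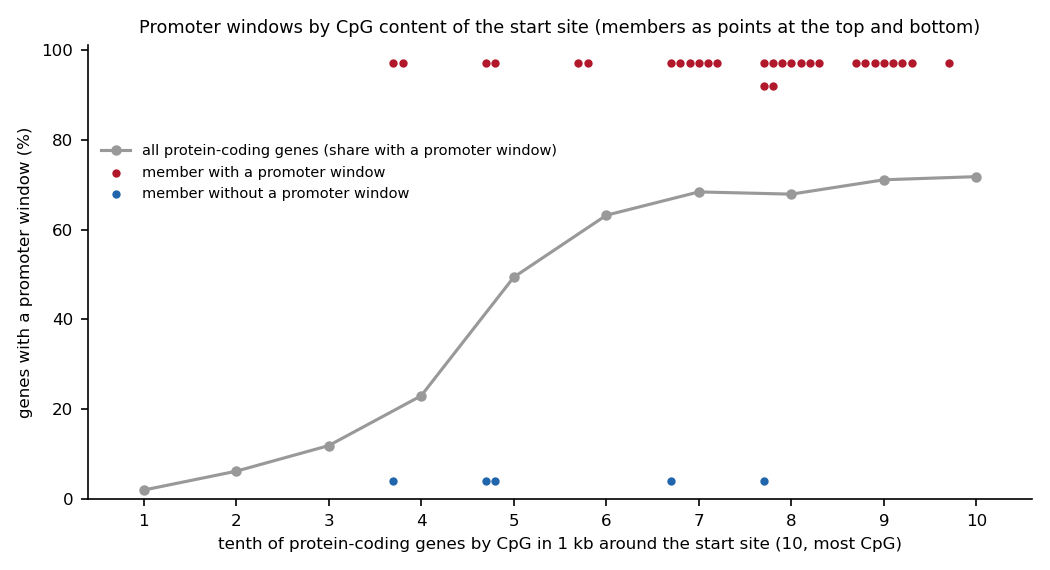
Share of protein-coding genes with a promoter window (percent) in 10 equal classes of genes ranked by CpG in 1 kb around the start site with most CpG (line), with members as points at the top (promoter window) and bottom (none). The 29 members with a window lie in classes 4 to 10, and the 5 without one in classes 4, 5, 7 and 8.

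The glucose transporters both had 2 promoter windows and 11 windows within 50 kb. At Slc2a1, which encodes GLUT1, the transporter of most cells, the promoter windows lay 0.17 kb upstream and 0.18 kb downstream of start sites. Of its other windows 7 lay inside the gene, 12.4 to 24.3 kb downstream of the start. At Slc2a3, which encodes GLUT3, a high-affinity transporter best known from neurons and leukocytes, 0 windows lay at the annotated 5′ end of the gene, although 74 CpG surround it. Both of its promoter windows, 69 bp downstream and 0.17 kb upstream of start sites, lay at a group of inner start sites 58.7 kb into the gene, with 12 CpG in each window.

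The enzymes of the upper part of the pathway differed in where they were accessible. Hk1 and Hk2 encode hexokinases, which trap glucose as glucose phosphate. Hk2 had windows 76 bp downstream of its first start site and 13 bp upstream of a second one, 1.1 kb further in. Hk1 had 8 groups of start sites and windows at 2 of them, 39.4 and 61.5 kb into the gene. The first of these windows, 0.13 kb upstream of an Hk1 start site, was also within 1 kb of a start site of 2210417K05Rik. Gpi1, which encodes glucose phosphate isomerase, had 1 promoter window 59 bp upstream of its start site. Pfkp, the platelet form of phosphofructokinase, had 3 promoter windows, 11 bp upstream and 0.52 and 0.83 kb downstream of a start site. Pfkl, the liver form, had 1, placed 487 bp downstream of a start site, which was the largest distance of a nearest window among members with a promoter window. Aldoa, the aldolase of most tissues, had 2, 51 bp and 0.36 kb upstream of separate start sites, and Aldoc, the brain aldolase, had 1, 0.35 kb upstream, that held 1 CpG.

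The enzymes of the lower part of the pathway included the member with most promoter windows. Gapdh, whose enzyme makes the first NADH of the pathway, had 5, more than any other member, with the closest 6 bp upstream of a start site. Tpi1 (triosephosphate isomerase) and Pgk1 (phosphoglycerate kinase, the first ATP-forming step) had 3 each, the closest 9 bp and 0.14 kb upstream of a start site. Pgam1 (phosphoglycerate mutase) had 1, 94 bp upstream. Eno1, the enolase of most tissues, had 2, with the closest 79 bp downstream. Ldha, which encodes the muscle-type subunit of lactate dehydrogenase, had 0 windows at its annotated 5′ end and 2 at the start sites 4.4 and 5.7 kb further in, 69 bp and 6 bp upstream.

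The regulators and the exporter all had promoter windows. Pfkfb3 and Pfkfb4 encode enzymes that set the level of the fructose bisphosphate that activates phosphofructokinase, and they had 3 and 2 promoter windows, the closest 62 bp and 0.22 kb upstream. Pdk1, whose kinase keeps pyruvate out of the mitochondrial citric acid cycle, had 2, 72 bp upstream and 0.16 kb downstream of start sites, and 0 further windows within 50 kb. Slc16a3, which encodes the lactate exporter MCT4, had 1 promoter window, 0.18 kb upstream of a start site 2.2 kb into the gene. It had 0 at its first and most CpG-rich start sites, with up to 75 CpG in the 1 kb centred on a site.

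Among the other hypoxia targets, 10 of 13 had a promoter window. The mitophagy receptors Bnip3 and Bnip3l had 1 and 2, with the closest 17 and 67 bp downstream of a start site. The collagen prolyl hydroxylases P4ha1 and P4ha2 had 1 each, 6 bp downstream and 0.29 kb upstream. Ndrg1, a stress-response gene, had 2, the closer 47 bp upstream, both within 1 kb of a start site of Gm2895 as well. Ankrd37, an ankyrin repeat gene, had 2, the closer 0.15 kb upstream, both shared with Lrp2bp. Car12, a surface carbonic anhydrase that acts in pH control, had 2, the closer 80 bp upstream. Kdm3a, a histone demethylase, had 2 (the closer 0.12 kb upstream), and Higd1a, a protein of the inner mitochondrial membrane, had 1, 0.36 kb downstream. Mxi1, whose product opposes MYC, had a window at each of 2 separate promoters 18.9 kb apart, 16 bp and 24 bp upstream of the start sites.

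Within 50 kb of a start site, members had a median of 7 windows (range 2 to 23), against a median of 3 over all protein-coding genes and 5 over those with a promoter window. All 34 members had at least 1 window in this reach, against 84.6% of all genes, and the lowest count of a member was 2. The count was above 3 in 26 members, 3 in 4 (Pfkl, Bnip3, P4ha2 and Kdm3a) and below 3 in 4 (Pfkm, Pdk1, Slc16a3 and Adm, with 2 each). Of these windows 56 were at the member's own promoters and 64 within 1 kb of the start site of another gene. A further 43 lay in the body of the member, 37 in the body of another gene and 55 between genes, with 9 windows counted for both Tpi1 and Eno2, whose reaches on chromosome 6 overlap. Members had a median of 2 other protein-coding genes with a start site within 50 kb, the same as all protein-coding genes. The reach was taken from every start site, so a gene with spread start sites was searched over a longer stretch. Members had a median of 5.5 start sites against 2, and what this adds to their counts was not tested.

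**Figure D2:**
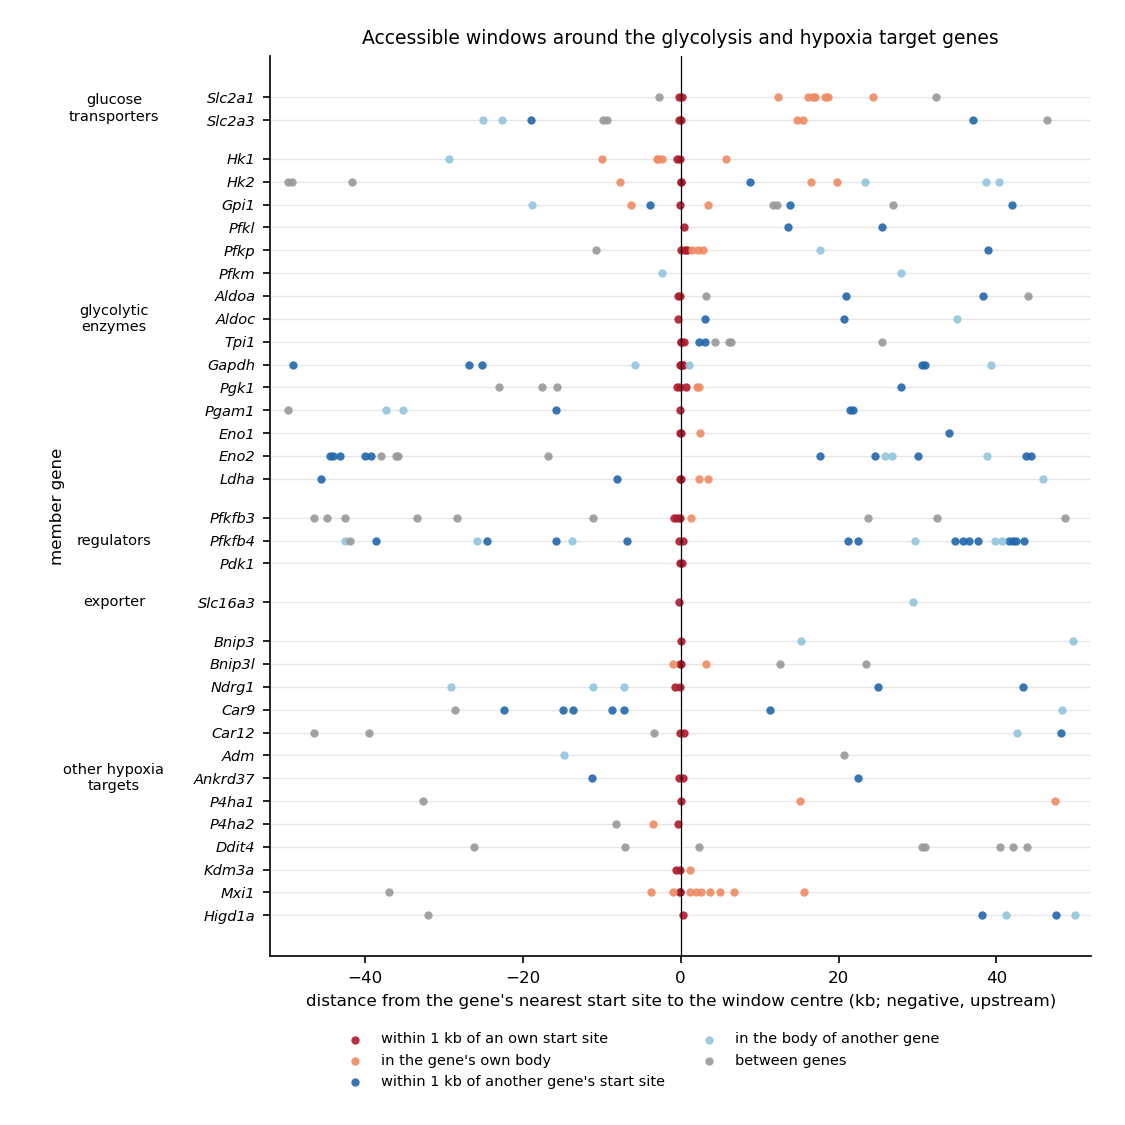
Distance in kb of each window centre from the nearest start site of the member (negative values are upstream), 1 row per member, within 50 kb. Colors give where the window lies. Own promoter windows cluster at 0 in 29 rows, and the rows of Pfkm, Eno2, Car9, Adm and Ddit4 have none there.

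The highest counts had different origins. Pfkfb4 had 23 windows, a number that 0.197% of protein-coding genes reached or passed, but 14 of them lay at start sites of its neighbors, with 6 at Shisa5, 4 at Trex1, 3 at Col7a1 and 1 at Ucn2. Only 2 of the 23 had Pfkfb4 as the gene with the nearest start site, and the gene is on chromosome 9, one of the chromosomes with more kept peaks. Eno2 had 17 windows, of which 10 lay at other genes' start sites, among them 3 at Tpi1, 2 at Spsb2, 2 at Ptpn6, which encodes a phosphatase of blood cells, and 1 at the microRNA genes Mir200c and Mir141. None of the 17 had Eno2 as its nearest gene. Pfkfb3 differed from these, with 9 of its 13 windows between genes (6 upstream and 3 downstream) and 9 nearest to Pfkfb3 itself. In Mxi1, 9 of 12 windows lay inside the gene, and all 12 were nearest to a Mxi1 start site, more than for any other member.

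**Figure D3:**
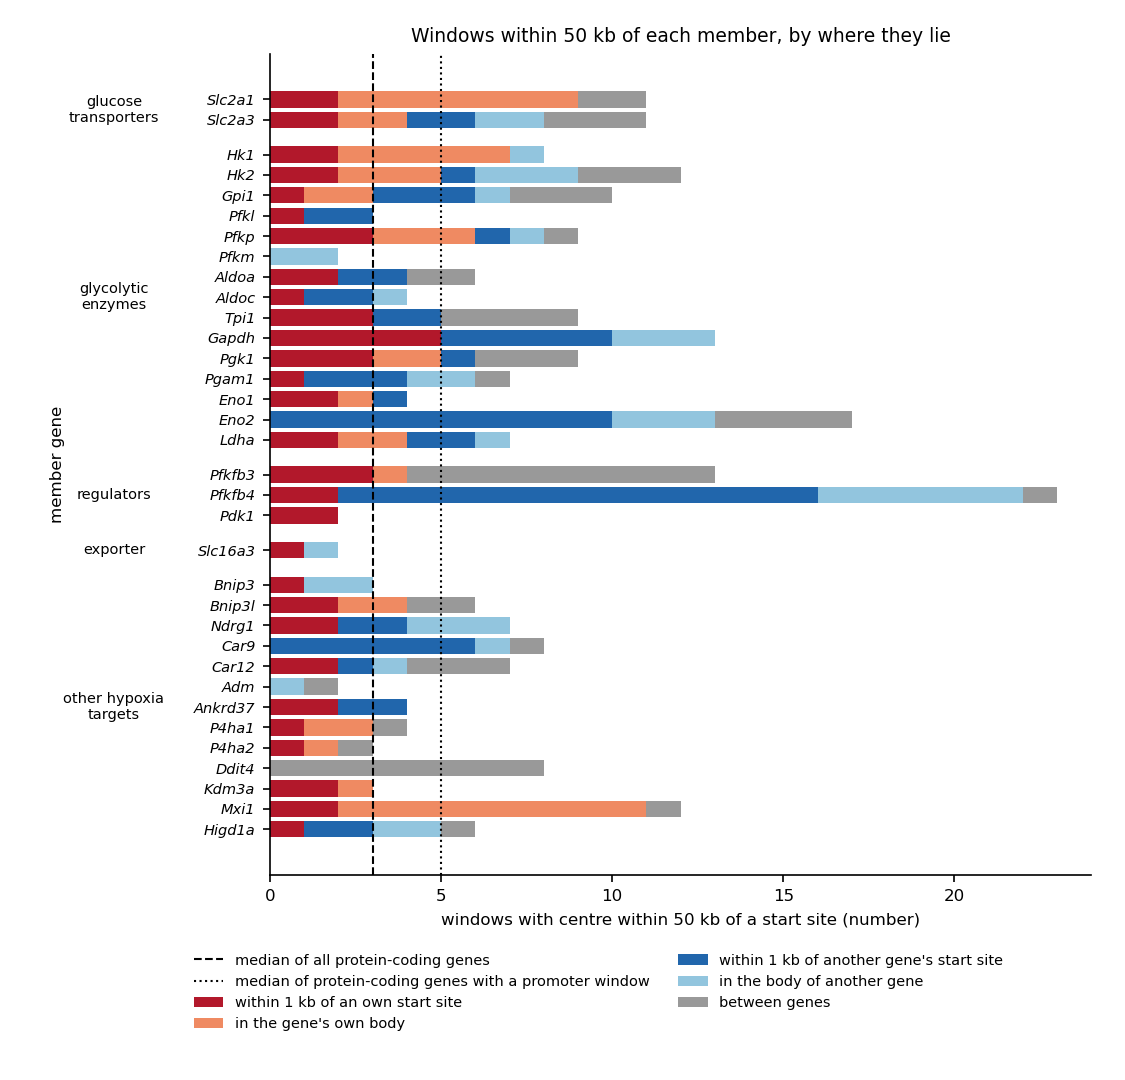
Number of windows with centre within 50 kb of a start site of each member, divided by where they lie. The dashed and dotted lines mark the medians of all protein-coding genes (3) and of those with a promoter window (5). Pfkfb4 and Eno2 owe most of their bars to the start sites and bodies of other genes, and Mxi1 and Slc2a1 to their own gene bodies.

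The 5 members without a promoter window still had windows in reach. The nearest centre lay 2265 bp downstream of the start site of Ddit4, which is just past the end of this gene of 2.1 kb, and 2387 bp upstream of Pfkm, inside the neighboring gene Senp1. It lay 7170 bp upstream of Car9, 14786 bp upstream of Adm and 16744 bp upstream of Eno2. Ddit4 had 8 windows, all between genes, with 6 downstream and 2 upstream, and 4 of them were nearest to Ddit4. Car9 had 8 as well, of which 6 were at start sites of other genes, such as Ccdc107, E130306D19Rik and Tpm2, and 0 were nearest to Car9. Adm had 1 window in the body of Sbf2 and 1 between genes, 20.7 kb downstream. Pfkm, Car9 and Adm were in the CpG-poorer part of genes with 37, 34 and 30 CpG around the richest start site, while Eno2 and Ddit4 had 64 and 77.

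Alternative isozymes and paralogs differed in the presence of a promoter window in 3 of 9 sets. In the phosphofructokinases, Pfkl and Pfkp had 1 and 3 promoter windows, and Pfkm had 0. In the enolases, Eno1 had 2 and Eno2 had 0. In the carbonic anhydrases, Car9 had 0 and Car12 had 2. In the other 6 sets every gene had a promoter window, and the counts within 50 kb were 11 and 11 for Slc2a1 and Slc2a3, 8 and 12 for Hk1 and Hk2, 13 and 23 for Pfkfb3 and Pfkfb4, 6 and 4 for Aldoa and Aldoc, 3 and 6 for Bnip3 and Bnip3l, and 4 and 3 for P4ha1 and P4ha2. These are presences in 1 pooled list, so the sizes of the differences could not be measured.

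Glycolytic enzymes and other hypoxia targets were close in promoter presence. A promoter window was found at 13 of 15 enzymes (86.7%) and 10 of 13 other hypoxia targets (76.9%), so that 2 enzymes and 3 other hypoxia targets lacked one. The median number of windows within 50 kb was 8 for enzymes (range 2 to 17) and 6 for other hypoxia targets (range 2 to 12). Enzyme genes stood in denser surroundings, with a median of 4 other protein-coding genes with a start site within 50 kb, against 1 for other hypoxia targets. Of the windows of enzymes 35 of 120 lay at start sites of other genes, and of those of other hypoxia targets 13 of 73. Counted by windows to which the gene itself was nearest, the medians were 3 and 3.

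The hypoxia core word was more frequent in the promoter windows of members than in those of all protein-coding genes. ACGTG, searched on both strands with CACGTG counted as 1 place, was present in 40 of 56 member promoter windows (71.4%, exact binomial 95% interval 57.8 to 82.7%), against 38.1% of all promoter windows of protein-coding genes. Such intervals cover counting error only, and 16 of the 56 windows overlapped another window and share sequence with it. At least 2 places were present in 18 windows (32.1%), against 9.36% of all promoter windows. ACGTG followed by C (ACGTGC, with the reverse complement GCACGT) was present in 29 (51.8%), against 13.4%. The E-box CACGTG, a site of MYC and related factors that contains the core word, was present in 13 (23.2%), against 13.3%. GCGTG, which differs from ACGTG in the first letter, was present in 37 (66.1%), close to the 62.6% of all promoter windows. Genes of this list are known as HIF targets in part through such elements, so a high share of the word describes the list and is not independent evidence about it. A match does not show that a factor was bound.

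**Figure D4:**
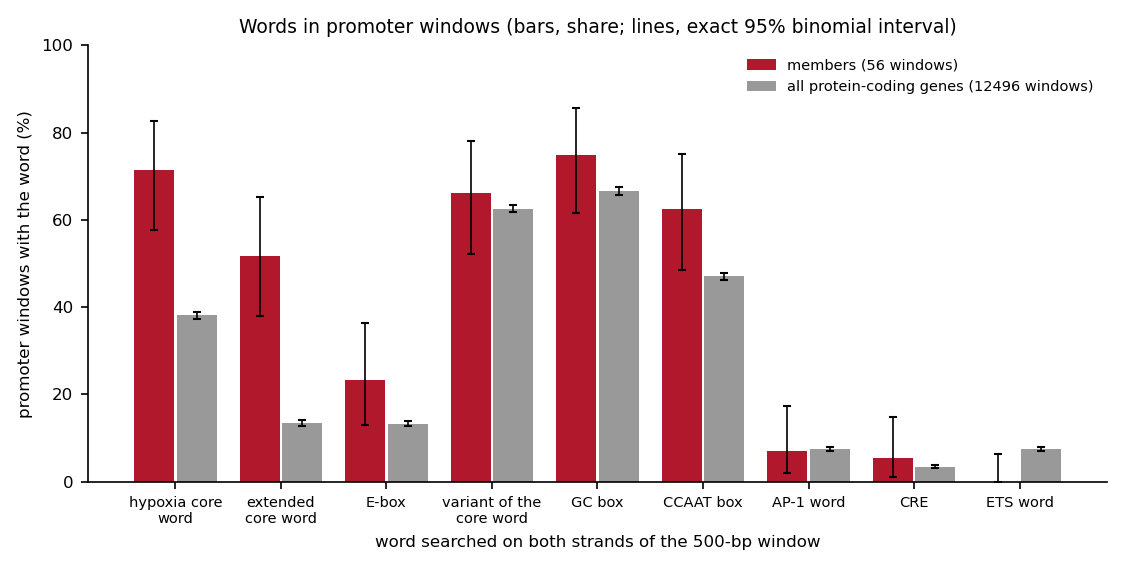
Share of promoter windows (percent) with each word, for the 56 windows of members (red, left) and those of all protein-coding genes (gray, right), with exact 95% binomial intervals as lines. The hypoxia core word is ACGTG, the extended core word ACGTGC, its variant GCGTG, the E-box CACGTG, the GC box GGGCGG, the CCAAT box CCAAT, the AP-1 word TGAGTCA, the CRE TGACGTCA and the ETS word CCGGAAGT. The interval of members lies above the share of all promoter windows for the core word, its extension and the CCAAT box.

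Counted by genes, the word was in at least 1 promoter window of 25 of the 29 members that had one, against 47.3% of all genes with a promoter window. For ACGTGC it was 21 of 29, against 17.8%, for CACGTG 13 of 29, against 17.9%, and for GCGTG 24 of 29, against 73.3%. These gene counts favor genes with several windows, of which members have more. All 10 other hypoxia targets with a promoter window had the word there, and 11 of 13 enzymes did. By windows, it was present in 20 of 28 (71.4%) for enzymes and 14 of 16 (87.5%) for other hypoxia targets. The 4 members with a promoter window and no ACGTG in it were Slc2a3, Pfkfb4, Aldoc and Eno1. In the transporter pair, Slc2a1 had 2 places and Slc2a3 had 0, in the aldolases Aldoa had 2 and Aldoc had 0, and Pfkfb3 had 1 and Pfkfb4 had 0. No match says only that these letters are not in these windows.

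The word was frequent at most levels of CpG in the window. Among member windows it was present in 1 of 4 with 0 to 9 CpG and in 7 of 15 with 10 to 19, against 21.4 and 35.8% of all promoter windows in those classes. It was present in 10 of 11 member windows with 20 to 29 CpG, 10 of 12 with 30 to 39 and 9 of 11 with 40 to 49, against 40.0, 41.0 and 43.0%. With 50 or more CpG it was in 3 of 3, against 42.8%. The median number of CpG was 27.5 in member promoter windows and 32 in all promoter windows.

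Some members carried many places. Over all member promoter windows there were 61 distinct places, 34 upstream and 27 downstream of the start site nearest to the window's centre, and 51 were within 500 bp of it. Of these, 16 were E-boxes, 19 were ACGTG on the strand of the gene and 26 were on the other strand. Pdk1 had 6 places, Ldha and Pgk1 had 5, and Ankrd37, Gapdh and Tpi1 had 4. The place nearest to the summit lay at a median of 93 bp in member windows that held the word and 98 bp in all promoter windows that held it, and 23 of 40 (57.5%) against 50.8% had one within 100 bp.

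**Figure D5:**
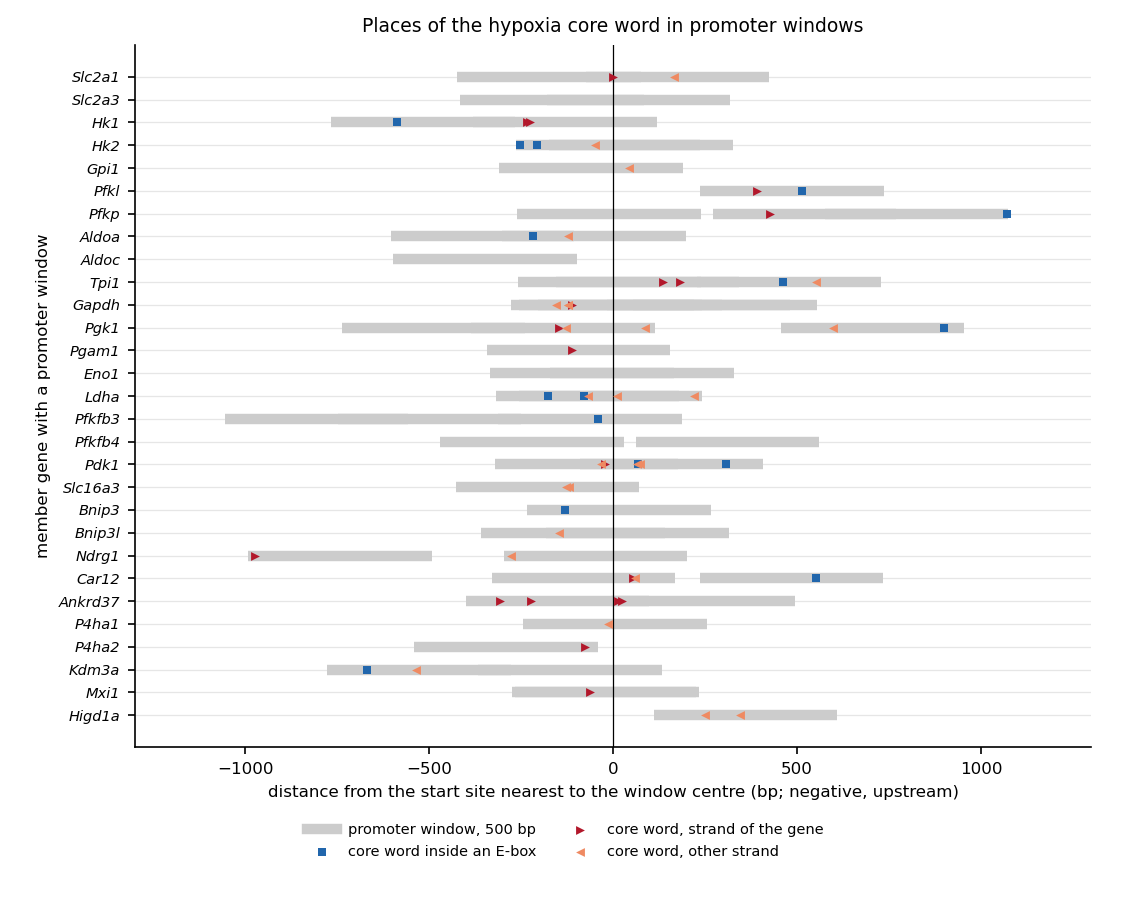
Places of the core word (symbols) in the promoter windows (gray bars, 500 bp) of the 29 members with a promoter window, by distance in bp from the start site nearest to the window's centre. Slc2a3, Aldoc, Eno1 and Pfkfb4 have bars without a symbol, and Pdk1, Ldha and Pgk1 have the most places.

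In 7 of the 56 member promoter windows (12.5%) a pair of places started within 25 bp of each other, against 1.61% of all promoter windows. Such a pair needs at least 2 places in a window, which 32.1% of member promoter windows and 9.36% of all promoter windows had. The gap in close pairs thus includes the higher frequency of the word and, like that frequency, describes the list. Whether close spacing differed among windows with at least 2 places was not tested. This spacing was looked for after the places had been seen. The 7 windows belonged to 6 genes, namely Pdk1 (2 windows), Hk1, Pgk1, Ldha, Slc16a3 and Car12, and the spacing was 5 bp in Car12, 9 bp in Hk1, Slc16a3 and 1 window of Pdk1, 12 bp in the other window of Pdk1, 14 bp in Ldha and 19 bp in Pgk1. The pairs of Pgk1 and Ldha can be seen in the sequences above, and the other 5 are shown here because they carry this pattern. They lie at chr10:61803141-61803170 (Hk1, - strand), chr2:71711336-71711365 and chr2:71711744-71711802 (Pdk1, + strand), chr11:120812298-120812357 (Slc16a3, + strand) and chr9:66561535-66561564 (Car12, + strand). The stretches of Hk1, Car12 and the first pair of Pdk1 are short because they are in UTRs.
Hk1: cgctccttACGTGgggaACGTGcagggtga
Pdk1 (first pair): cggccagcCACGTcccgCACGTagcgcccg
Pdk1 (second pair): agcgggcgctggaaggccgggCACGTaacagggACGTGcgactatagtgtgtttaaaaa
Slc16a3: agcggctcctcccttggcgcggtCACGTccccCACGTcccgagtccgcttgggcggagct
Car12: tacacaaccaACGTGCACGTcttggtccca

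Of the other promoter words, the CCAAT box, the site of NF-Y, was present in 35 of 56 member promoter windows (62.5%, interval 48.6 to 75.1%), against 47.1% of all promoter windows. The GC box GGGCGG was present in 42 of 56 (75.0%) and 66.6% of all promoter windows, with intervals of 61.6 to 85.6% and 65.8 to 67.5%. The AP-1 word TGAGTCA, or TGACTCA on the other strand, was in 4 (7.14%), against 7.47%. The cAMP response element TGACGTCA was in 3 (5.36%), against 3.46%. The ETS word CCGGAAGT was in 0 of 56, which allows a share of up to 5.36% by 3 counts and 6.38% by the exact interval, against 7.45% of all promoter windows.

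Away from promoters, the windows near members held the AP-1 word more often than all such windows. Among windows within 50 kb of a member and over 1 kb from any annotated start site, the AP-1 word, the site of FOS and JUN dimers, was present in 34 and absent from 97 (25.95% with it, interval 18.7 to 34.3%), against 15.6% of all windows over 1 kb from a start site and 16.5% of those that were also within 50 kb of a protein-coding gene. ACGTG was present in 52 of them (39.7%), against 24.0% of all windows over 1 kb from a start site and 25.8% of those within 50 kb of a protein-coding gene. The windows near members differed from all windows over 1 kb from a start site in other ways, and what these contribute was not tested. They had more CpG, with a median of 8 against 6, and lay closer to a start site, with a median of 4910 against 17991.5 bp. More of them came from peaks with several summits kept (6.11 against 0.86%). Overlap with another window was found in 3.86% of all windows over 1 kb from a start site and in 9.16% of those near members. Overlapping windows share sequence, so a match can be counted more than once. The AP-1 word was present near 19 of the 31 members with such a window. Slc2a1 had it in 5 of 9, 4 of them inside the gene, Ddit4 in 4 of 8, Pfkp in 3 of 5 and Bnip3 in 2 of 2, and Mxi1 had it in 2 of 10 and ACGTG in 8 of 10. By group, counting a window once for each gene in reach, the AP-1 word was present in 15 of 57 for enzymes and 11 of 44 for other hypoxia targets.

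Other genes of the same pathways were counted from a list that left out the members. Of the tissue-restricted or second isozymes, 19 were counted and others of the list are not reported, so their share is a partial one. A promoter window was present at 9 of the 19 (47.4%), close to the 43.5% of all protein-coding genes. The 10 without one were Hk3 and Hkdc1 (hexokinases), Eno3 and Pgam2 (muscle forms), Pgk2, Ldhc and Gapdhs (testis forms), Pklr (pyruvate kinase of liver and red cells) and the transporter genes Slc2a2 and Slc2a4. Their start sites had 10 to 48 CpG, and those of the 9 with a window had 42 to 120. Of these 9 genes, 4 had ACGTG in a promoter window, against 47.3% of all genes with a promoter window. Among 21 further hypoxia targets, 16 had a promoter window (76.2%), against the same 43.5%. Of these 16, 13 had ACGTG there, against the same 47.3%, with Vegfa, Egln1 and Angptl4 as the exceptions. The 5 without a promoter window were Egln3, a HIF prolyl hydroxylase, Lox and Loxl2, which crosslink collagen, Plod1, a lysyl hydroxylase, and Rora, a nuclear receptor. The word was present in 18 of 28 promoter windows of further hypoxia targets (64.3%) and 4 of 12 of the isozymes counted (33.3%), against 38.1% of all promoter windows.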

How the data were processed

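The mm9 positions of accessible windows were used as deposited, in 1 list pooled over 4 plates of 96 wells, with no value per cell (unit other). To make it, the authors aligned adapter-trimmed reads with Bowtie2 2.1.0, marked duplicates with Picard 1.79 and dropped them with low-quality and mitochondrial reads. Summits were called on the aggregated cells with MACS2 at a q threshold of 0.05 (version: not given in the sources used here), and 50000 were kept by q and widened to 500 bp. A site missing from the list may have ranked lower, and 1 peak can give several windows.

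Windows were placed with the NCBIM37 (mm9) genome and GENCODE vM1, with positions counted from 1, and all 50000 lay within the chromosome ends. Python 3.11.15 was used with numpy 2.4.6, pandas 2.3.3, scipy 1.17.1, pyfaidx 0.9.0.4 and matplotlib 3.10.9. The counting code was tested on simulated windows and words. Members, lists and words were chosen with earlier results of these data known, so counts and medians are set beside those of all protein-coding genes, without a test. All members are named by rule, and so are the genes of the pathway list without a promoter window. Some isozyme genes are not reported here. They were taken out of that list's counts late, for a reason unrelated to their values, so its counts are partial. Vegfa, Egln1, Angptl4, the marker genes of both stains and the 5 sequences of close pairs were chosen after their values were seen. The first 10 sequences took 1 gene with the word from each isozyme set that differed, where it had one. The rest were the members whose word lay closest to a summit. Some members with a closer word than Aldoa and Car12 are therefore not shown. Start sites within 500 bp of each other formed a group. Pkm, Hilpda and Spi1 were matched by an older symbol. Promoter distances of 500 bp and 2 kb, reaches of 10 and 100 kb, protein-coding transcripts, window overlap, merged windows, nearest-gene assignment, the central 200 bp and chromosomes were varied. The isozyme sets were put through the promoter alternatives after the data had been seen.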

Additional observations from a re-analysis of the deposited data

How the results depend on the processing

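Of 50 alternatives over 10 results, 39 left the value close to its main one (a count or median within 1.5 times, a share within its main exact interval) and 11 moved it. At a promoter distance of 500 bp, GCGTG was in 65.31% of member promoter windows and 66.3% of all, so that the order of these shares turned. The same number of members, enzymes and other hypoxia targets had a promoter window (29, 13 and 10) at 500 bp, at 2 kb, by protein-coding transcripts and by any overlap. Without chromosomes 7, 8, 9 and X, the other hypoxia targets numbered 6 of 8. This was called moved because counts were compared although fewer genes were left. The share was 75.0%, against 76.9% in the main count. In the alternatives added after the data had been seen, the isozyme sets that differed in a promoter window stayed 3 of 9 under the same 4 choices and were 2 of the 5 sets left without those chromosomes. The median number of windows was 3 for members, 4 for enzymes and 2 for other hypoxia targets within 10 kb (1 for all genes), 3, 3 and 3 when only windows nearest to the gene were counted (1 for all genes), and 13 for enzymes within 100 kb (6 for all genes). In the central 200 bp, ACGTG was in 41.07% of member promoter windows (19.0% of all), GCGTG in 39.29% (37.9%) and the AP-1 word in 16.03% of distal windows (7.9%), where fewer bases were searched. The AP-1 word was in 23.26% of distal windows within 10 kb of a member and 21.03% within 100 kb. For distal windows within those reaches of any protein-coding gene the shares were 16.1 and 16.5%, so the gap was smaller than at 50 kb. No paired analysis was possible because the list is 1 pool with no replicates. The list gives neither depth nor cell type, so an absent window does not show a closed site.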
